A study of Mus musculus with 12 samples.

Results

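The genes described here are 35 markers of Kupffer cells, monocytes and macrophages, chosen by symbol from a list of known markers, with no threshold on any measured value, out of 53452 genes in the deposited count table. All 35 were found. The cultures were HSCs isolated from wild-type mouse liver, read here as hepatic stellate cells because the labels do not spell out the abbreviation. RNA was sequenced in 4 groups of 3 libraries. One group received the solvent DMSO for 12 h, and the others received riociguat, a drug that stimulates soluble guanylate cyclase, for 6, 12 or 24 h. No dose is stated in the labels. By the labels every culture was kept 12 h before a medium change and collected 24 h after it, so riociguat was added 18 h, 12 h and 0 h after the change in the 6, 12 and 24 h groups. Only the 12 h group had a DMSO control of the same exposure, so in the other comparisons with DMSO the compound and the time of its addition cannot be told apart. The origin of the replicates is not described: if they do not come from different animals or isolations, the p-values reflect technical spread between libraries alone.

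Kupffer cells are the resident macrophages of the liver sinusoids, where they lie next to stellate and endothelial cells and take up particles, lipoproteins and dying cells. Their lineage depends on the transcription factor PU.1, encoded by Spi1, and on colony-stimulating factor 1 acting through its receptor Csf1r. Stellate cells are a source of that growth factor, and liver cell isolates often carry macrophages along with the cell type that was sought. A bulk library cannot separate fewer macrophages from less RNA per macrophage, and several of these genes are also transcribed in other liver cells.

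The macrophage genes ranged from Lgals3, at 129 to 152 CPM, down to Timd4, with no count in 7 of the 12 libraries. Levels are CPM, counts scaled to library size with TMM factors. The 35 genes summed to 538 ± 14.7 CPM in DMSO (SD, n = 3), 504 ± 24.6 CPM at 6 h, 546 ± 46.5 CPM at 12 h and 538 ± 28.1 CPM at 24 h of riociguat. The ranges of the 4 groups overlapped, between 6 h and DMSO only from 521 to 524 CPM. Smaller sums gave other patterns. The 20 genes at a mean under 5 CPM summed to 38.8 to 42.9 CPM at 6 h and 45.5 to 52.2 CPM in DMSO, without overlap. The 28 genes left without Lgals3, Cd68, Ctss, Cd74, Lyz2, Mrc1 and Cd14, which other liver cells can also express, summed to 194 to 222 CPM at 24 h and 232 to 245 CPM in DMSO, again without overlap. Gpnmb stayed among these 28 genes, with a mean of 111.4 CPM in DMSO and 85.55 CPM at 24 h. The sum of the 28 genes had means of 236.4 CPM in DMSO and 209.8 CPM at 24 h. The difference in Gpnmb was nearly as large as that in the sum, so the sum does not show that the 28 genes fell together. The sums were not tested. Lgals3, Gpnmb, Lyz2 and Cd68 alone held between 61.7% and 67.0% of the sum over all 35 genes. Lgals3 encodes the lectin galectin-3, and Gpnmb a glycoprotein of lysosomes and melanosomes. On the scale of CPM per kilobase of exon, which allows genes to be compared, Lgals3 ranked first at 74.7 in DMSO, followed by the lysozyme gene Lyz2 at 52.2, the lysosomal membrane gene Cd68 at 25.0, Gpnmb at 17.1 and Cd14, a co-receptor for bacterial lipopolysaccharide, at 12.1.

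**Figure D1:**
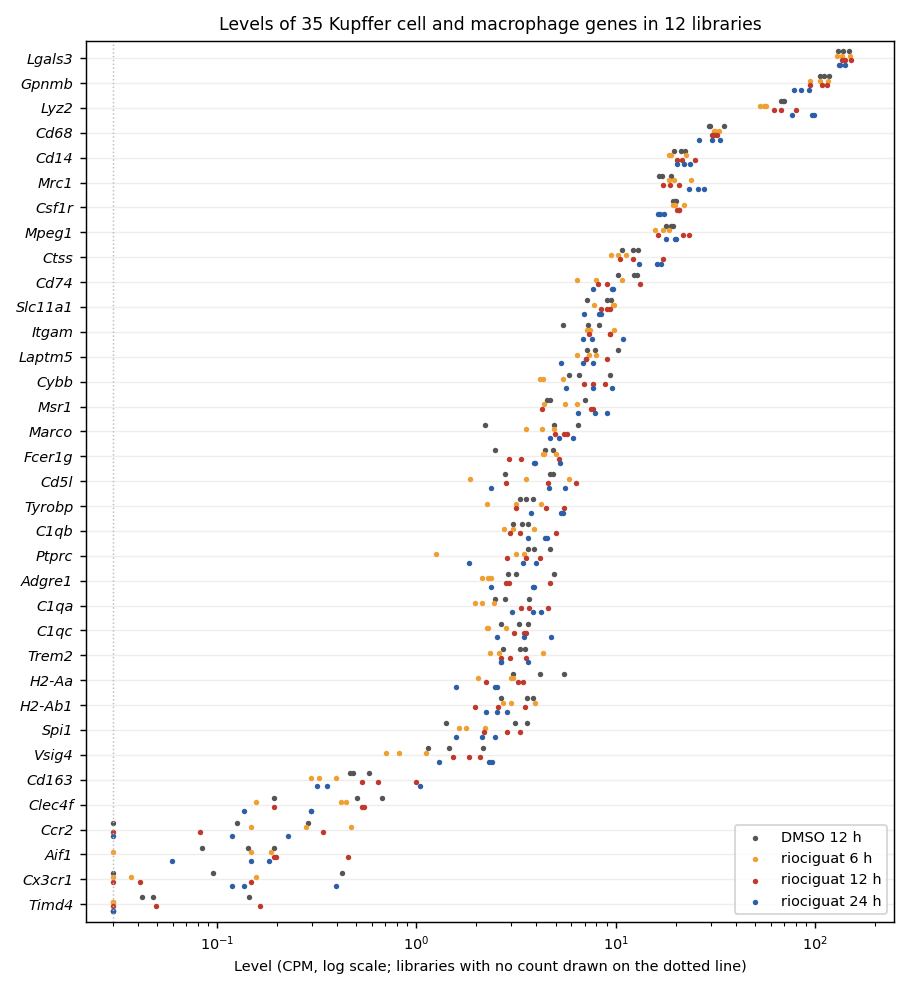
Level of each of the 35 genes in each library, in CPM on a log scale, ordered by the mean over all libraries, with 1 point per library coloured by group. Lgals3 lies between 129 and 152 CPM, while Clec4f, Aif1, Ccr2, Cx3cr1 and Timd4 lie below 1 CPM in every library.

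The 5 genes listed here as Kupffer cell identity genes spanned a range of levels, with Clec4f and Timd4 near the bottom. Whether they separate Kupffer cells from other macrophages was not tested. Clec4f encodes a C-type lectin that in mouse marks Kupffer cells (ENSMUSG00000014542, chromosome 6, 83644542 to 83656187, GRCm38). It read 0.670, 0.506 and 0.194 CPM in the DMSO libraries and 0.157, 0.419 and 0.445 CPM at 6 h. At 12 h it read 0.194, 0.537 and 0.543 CPM, and at 24 h 0.136, 0.297 and 0.297 CPM. The 4 groups overlapped, and each library held between 2 and 14 counts of this gene. Timd4, which encodes a phosphatidylserine receptor for dying cells, had 10 counts in all and no count in 7 libraries. A count of 0 allows up to 3 counts, or 0.111 to 0.236 CPM depending on the library, for counting error only. The other identity genes were the scavenger receptor gene Marco at 4.51 ± 2.14 CPM, Cd5l, which encodes the secreted apoptosis inhibitor of macrophages, at 4.10 ± 1.15 CPM, and the complement receptor gene Vsig4 at 1.58 ± 0.51 CPM in DMSO (SD, n = 3). The 5 identity genes together summed to between 6.84 and 14.4 CPM over the 12 libraries.

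Of the 35 genes, 31 passed the low-count filter and were tested. The other 4 were Timd4, Aif1, which encodes the calcium-binding protein Iba1, with 44 counts over all libraries, and the chemokine receptor genes Ccr2 and Cx3cr1, with 41 and 32 counts. Ccr2 marks blood monocytes that enter the liver, and both receptor genes had no count in 3 libraries each. The 4 genes entered no comparison.

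Markers of the other cells that a stellate isolate may hold were measured in the same libraries. In DMSO, 12 stellate markers summed to 2456 to 2506 CPM, 16 sinusoidal endothelial markers to 2046 to 2158 CPM and 12 hepatocyte markers to 1464 to 1529 CPM. All of these were detected in every library. Over the 12 libraries, 7 B cell markers summed to 28.1 to 87.5 CPM, 8 cholangiocyte markers to 616 to 1105 CPM and 9 dendritic cell markers to 22.3 to 35.9 CPM. The monocyte list of 7 genes summed to 97.8 to 149 CPM, and Ly6c2, Chil3 and Ccr2 were each at 0 in at least 1 library. The 11 T and NK cell markers stayed between 0.786 and 2.14 CPM with Gzma and Ncr1 at 0 throughout, and the 10 neutrophil markers between 0.393 and 1.52 CPM with Ly6g, Elane and Retnlg at 0 throughout. Mast cell and basophil markers (6 genes) summed to 46.3 to 85.6 CPM, and erythroid markers (5 genes) to 0.725 to 2.76 CPM. Of the mast cell and basophil genes only Kit passed the low-count filter, and the other 5 were each at 0 in at least 1 library. Library totals ranged from 12953096 to 27358893 counts, and DMSO replicate 1 stood apart from the other DMSO libraries.

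**Figure D2:**
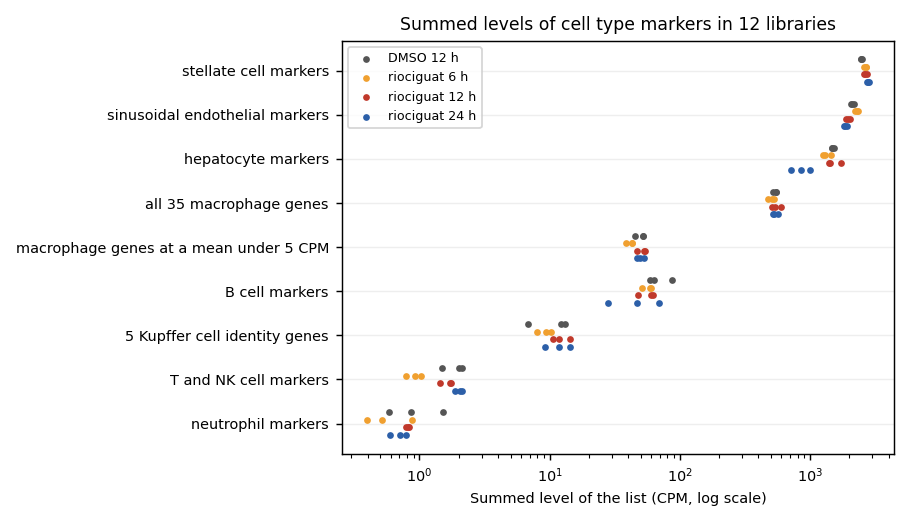
Summed level of 9 marker lists in each library, in CPM on a log scale, with 1 point per library coloured by group. The 35 macrophage genes lie between 477 and 596 CPM in every group, below the stellate, endothelial and hepatocyte lists, and the hepatocyte list is lowest in the 24 h libraries.

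The comparison of riociguat with DMSO at 12 h of exposure in both arms asks what the compound changed. None of the 31 tested macrophage genes was called changed at an adjusted p under 0.05 (edgeR's quasi-likelihood test, Benjamini-Hochberg adjustment over 16036 genes), against 5.66% of all tested genes (2.18% higher and 3.48% lower). At an unadjusted p under 0.05 the count was also 0 of 31, against 16.8% of all genes, and DESeq2 called 0 of the 28 genes to which it gave an adjusted p. The median log2 fold change of the 31 genes was 0.07, with 20 values above 0 and 11 below, and the median over all genes was 0.0025. The smallest adjusted p, 0.353, was that of H2-Aa, which encodes the alpha chain of an MHC class II molecule, with a log2 fold change of -0.51 ± 0.27 (SE).

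Precision differed among the genes and limits what that comparison can show. Cd68 read 29.8, 34.9 and 29.3 CPM in DMSO and 31.1, 32.2 and 30.4 CPM at 12 h, with a log2 fold change of -0.0068 ± 0.09 (SE). Its groups overlapped. Csf1r read 19.3, 19.8 and 20.1 CPM in DMSO and 20.2, 20.8 and 20.8 CPM at 12 h, a log2 fold change of 0.06 ± 0.07. The groups of Csf1r did not overlap, which held for 22.4% of all tested genes in this comparison, and the difference was under its SE. Spi1 read 3.59, 3.12 and 1.40 CPM in DMSO and 3.29, 2.19 and 2.86 CPM at 12 h, a log2 fold change of 0.03 ± 0.31. Ptprc, which encodes the pan-leukocyte phosphatase CD45, read 4.69, 3.88 and 3.63 CPM in DMSO and 2.86, 4.17 and 3.56 CPM at 12 h, a log2 fold change of -0.20 ± 0.31. Both genes overlapped between the groups. Adgre1, which encodes the macrophage surface protein F4/80, read 2.87, 3.16 and 4.89 CPM in DMSO and 2.81, 4.66 and 2.91 CPM at 12 h, again overlapping. Its log2 fold change was -0.06 ± 0.27, and that of Clec4f was -0.10 ± 0.59. For the low genes a change had to be well above these errors to be called, and smaller ones could be missed at this depth.

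At 6 h of riociguat against DMSO 12 h, 1 of the 31 genes was called, against 9.72% of all tested genes (4.48% higher and 5.24% lower). Lyz2 fell (ENSMUSG00000069516, chromosome 10, 117277331 to 117282321, minus strand, GRCm38). It read 69.6, 69.2 and 67.3 CPM in DMSO and 53.1, 56.7 and 55.3 CPM at 6 h, and every 6 h library lay below every DMSO library. The log2 fold change was -0.32 ± 0.09 (SE; edgeR adjusted p = 0.0370). The call was lost on leaving out any single one of the 6 libraries, with adjusted p between 0.0597 and 0.106 and the log2 fold change lay between -0.34 and -0.30 over the 12 alternatives. Lyz1, a neighbouring near-identical lysozyme gene with which reads could be shared, held only 0.0479 to 0.506 CPM in DMSO and 0.222 to 0.372 CPM at 6 h.

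Most of the other macrophage genes had a negative log2 fold change at 6 h, but none passed the test. Of the 31 values 25 were below 0, with a median of -0.15, against a median of -0.0044 over all genes. The groups did not overlap for 7 of 31 genes, against 25.7% of all genes. The unadjusted p was under 0.05 for 7 of 31 genes, or 22.6%, and for 23.2% of all genes. Cybb, which encodes the catalytic subunit of the phagocyte NADPH oxidase, read 9.38, 6.53 and 5.86 CPM in DMSO and 4.33, 5.44 and 4.19 CPM at 6 h, without overlap. Its log2 fold change was -0.64 ± 0.21 (SE; edgeR adjusted p = 0.0703), and it was called without a low-count filter (adjusted p = 0.0108), by DESeq2 (adjusted p = 0.0451) and with a replicate block (adjusted p = 0.0490). Cybb was not called with RLE factors, with library totals, in a fit of the 6 libraries alone or on leaving out any single library. Vsig4 read 1.15, 2.15 and 1.45 CPM in DMSO and 0.708, 1.12 and 0.816 CPM at 6 h, with all 6 h libraries lower and a log2 fold change of -0.83 ± 0.35 (edgeR adjusted p = 0.157). Adgre1 read 2.12, 2.28 and 2.37 CPM at 6 h, below all DMSO libraries, with a log2 fold change of -0.68 ± 0.28 (edgeR adjusted p = 0.145). Ptprc read 1.26, 3.16 and 3.48 CPM at 6 h, also below all DMSO libraries, with a log2 fold change of -0.57 ± 0.31 (edgeR adjusted p = 0.2997). Several lists of other cells also did not overlap between 6 h and DMSO. At 6 h the T and NK cell markers (0.786 to 1.02 against 1.5 to 2.11 CPM) and the hepatocyte markers (1251 to 1432 against 1464 to 1529 CPM) were below DMSO. The mast cell and basophil (78.1 to 85.6 against 63.5 to 70.6 CPM), stellate (2578 to 2667 against 2456 to 2506 CPM) and sinusoidal endothelial markers (2194 to 2340 against 2046 to 2158 CPM) were above it. In the mast cell and basophil list only Kit passed the low-count filter. In the T and NK cell list only Cd3d and Cd4 passed it, and 10 of the 11 genes were at 0 in at least 1 library. The part of all these lists of other cells in the macrophage values was not tested.

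**Figure D3:**
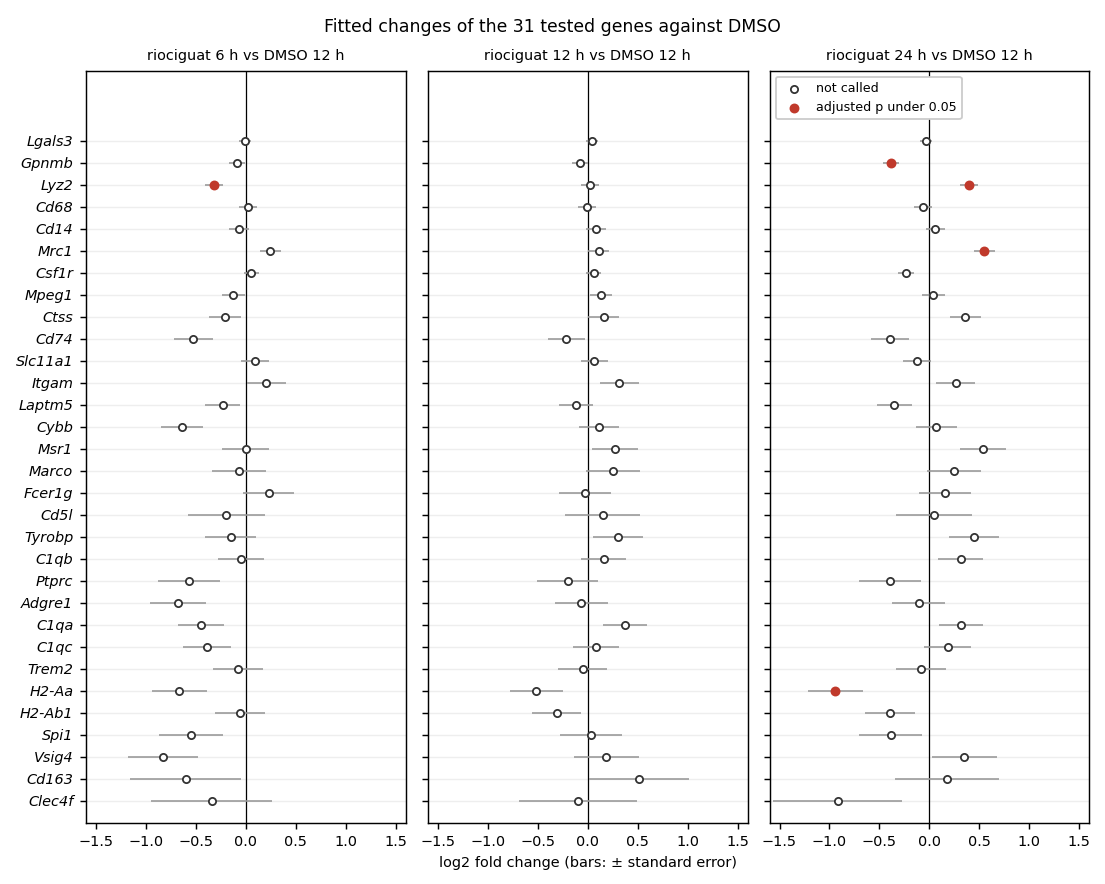
Fitted log2 fold change of each of the 31 tested genes against DMSO in the 6, 12 and 24 h groups, with bars of 1 SE, ordered by level. Filled points passed the test: Lyz2 at 6 h, none at 12 h, and Gpnmb, Lyz2, Mrc1 and H2-Aa at 24 h.

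At 24 h of riociguat against DMSO 12 h, 4 of the 31 genes were called, 2 higher and 2 lower, against 13.4% of all tested genes (5.94% higher and 7.41% lower). Mrc1 rose. It encodes the mannose receptor CD206, an endocytic receptor that both macrophages and sinusoidal endothelial cells carry (ENSMUSG00000026712, chromosome 2, 14229392 to 14332057, plus strand, GRCm38). It read 16.6, 17.0 and 19.0 CPM in DMSO and 25.7, 27.8 and 23.4 CPM at 24 h, without overlap. The log2 fold change was 0.55 ± 0.10 (SE; edgeR adjusted p = 0.0016). Lyz2 was also higher, at 76.4, 96.2 and 98.8 CPM, all above the DMSO libraries. Its log2 fold change was 0.40 ± 0.09 (edgeR adjusted p = 0.0065). Lyz1 read 0.499, 1.01 and 0.594 CPM at 24 h. The calls of Mrc1 and Lyz2 held under each of the 12 alternatives. The monocyte list, which includes Ccr2, summed to 140 to 149 CPM at 24 h and 106 to 114 CPM in DMSO, with 2 of 3 tested genes higher, and its part in the Lyz2 value was not tested.

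Gpnmb and H2-Aa were lower at 24 h. Gpnmb (ENSMUSG00000029816, chromosome 6, 49036546 to 49070929, plus strand, GRCm38) read 106, 117 and 111 CPM in DMSO and 85.2, 93.2 and 78.2 CPM at 24 h. The groups did not overlap, and the log2 fold change was -0.38 ± 0.08 (SE; edgeR adjusted p = 0.0044). H2-Aa (ENSMUSG00000036594, chromosome 17, 34282744 to 34287823, minus strand, GRCm38) read 3.06, 4.17 and 5.47 CPM in DMSO and 2.54, 2.49 and 1.58 CPM at 24 h, again without overlap. Its log2 fold change was -0.94 ± 0.28 (edgeR adjusted p = 0.0305). The H2-Aa call was lost without DMSO replicate 2 or 3 or 24 h replicate 1 or 3, with adjusted p between 0.0512 and 0.166, and in a fit of the 6 libraries alone (adjusted p = 0.0547). The other members of its group did not pass. Cd74, the MHC class II invariant chain gene, had a log2 fold change of -0.39 ± 0.19 and H2-Ab1, the beta chain partner of H2-Aa, one of -0.39 ± 0.25 (edgeR adjusted p = 0.202 and 0.351).

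The groups did not overlap for 7 of 31 genes, against 28.3% of all genes. The changes at 24 h went both ways, and the median log2 fold change of the 31 genes was 0.04, with 17 values above 0 and 14 below. In several groups the signs were alike: all 4 scavenger and pattern receptor genes and all 3 C1q genes had values above 0, and all 3 MHC class II genes and all 3 lipid-associated genes had values below 0, most of which did not pass the test. Csf1r had a log2 fold change of -0.23 ± 0.08 (edgeR adjusted p = 0.0534), Msr1, another scavenger receptor gene, one of 0.54 ± 0.23 (adjusted p = 0.142), and Cd68 one of -0.07 ± 0.09. Clec4f stood at 0.243 ± 0.0928 CPM at 24 h and 0.456 ± 0.242 CPM in DMSO (SD, n = 3), with overlapping libraries. Markers of other cells moved in the same libraries. Of 12 hepatocyte markers 10 were lower at 24 h and none higher, with sums of 713 to 997 CPM at 24 h. Of 16 sinusoidal endothelial markers 3 were higher and 5 lower, with sums of 1826 to 1905 CPM, and of 12 stellate markers 5 were higher and 2 lower, with sums of 2717 to 2840 CPM. Their part in the macrophage values was not tested.

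The exposure times were also compared directly, without DMSO. Between 12 and 6 h, 3 of the 31 genes were called, all higher at 12 h, against 6.09% of all tested genes (2.57% higher and 3.52% lower). C1qa (ENSMUSG00000036887, chromosome 4, 136895917 to 136898803, minus strand, GRCm38), which encodes the A chain of the complement component C1q, read 2.12, 2.46 and 1.96 CPM at 6 h and 3.68, 3.34 and 4.59 CPM at 12 h. All 12 h libraries were higher, and the log2 fold change was 0.82 ± 0.23 (SE; edgeR adjusted p = 0.0411). Cybb (ENSMUSG00000015340, chromosome X, 9435252 to 9487771, minus strand, GRCm38) went from 4.33, 5.44 and 4.19 CPM at 6 h to 7.65, 8.87 and 6.96 CPM at 12 h, without overlap, a log2 fold change of 0.75 ± 0.21 (edgeR adjusted p = 0.0437). Lyz2 read 62.5, 79.9 and 67.1 CPM at 12 h, all above 6 h, with a log2 fold change of 0.34 ± 0.09 (edgeR adjusted p = 0.0328). The groups did not overlap for 8 of 31 genes, against 23.9% of all genes. None of the 3 calls was stable to the loss of a library. C1qa lost its call without any 1 of the 6 libraries (adjusted p 0.0552 to 0.175) and with a replicate block (adjusted p = 0.0537). Lyz2 lost its call without 6 h replicate 1, 2 or 3 or 12 h replicate 2 or 3 (adjusted p 0.0524 to 0.199). Cybb lost its call without 6 h replicate 1 or 3 or any 12 h replicate (adjusted p 0.0570 to 0.189).

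Between 24 and 6 h, 7 of the 31 genes were called, 5 higher and 2 lower at 24 h, against 15.3% of all tested genes (7.16% higher and 8.13% lower). The groups did not overlap for 9 of 31 genes, against 29.8% of all genes. Lyz2 had the smallest adjusted p and rose, with a log2 fold change of 0.71 ± 0.09 (SE; edgeR adjusted p = 2.91e-05). Vsig4 (ENSMUSG00000044206, chromosome X, 96247203 to 96293438, minus strand, GRCm38) read 2.40, 1.31 and 2.32 CPM at 24 h, all above 6 h, a log2 fold change of 1.18 ± 0.35 (edgeR adjusted p = 0.0279). Ctss, which encodes the lysosomal protease cathepsin S (ENSMUSG00000038642, chromosome 3, 95526786 to 95556403, plus strand, GRCm38), read 9.44, 11.3 and 10.2 CPM at 6 h and 16.9, 16.1 and 13.1 CPM at 24 h, without overlap, with a log2 fold change of 0.57 ± 0.16 (edgeR adjusted p = 0.0207). C1qa read 3.85, 3.03 and 4.20 CPM and Cybb 7.66, 9.61 and 5.64 CPM at 24 h, and both lay above their 6 h libraries. Their log2 fold changes were 0.76 ± 0.23 and 0.71 ± 0.21 (edgeR adjusted p = 0.0328 and 0.0325). The remaining C1q chain genes had log2 fold changes of 0.36 ± 0.23 for C1qb and 0.57 ± 0.24 for C1qc, which did not pass (edgeR adjusted p = 0.342 and 0.129).

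The genes lower at 24 h than at 6 h were Csf1r and Gpnmb. Csf1r read 19.8, 19.5 and 22.0 CPM at 6 h and 16.7, 17.5 and 16.3 CPM at 24 h, without overlap, and fell by 0.29 ± 0.08 on the log2 scale (SE; edgeR adjusted p = 0.0172). Gpnmb read 117, 105 and 93.8 CPM at 6 h, and the lowest of these lay just above the highest 24 h library. It fell by 0.30 ± 0.08 on the log2 scale (edgeR adjusted p = 0.0217). Single libraries decided 6 of these 7 calls. Without 6 h replicate 1 or 3, Vsig4 and C1qa lost their calls, as they did without 24 h replicate 1 or 3 (adjusted p 0.0838 to 0.104 and 0.0740 to 0.128). Cybb and Ctss lost theirs without 6 h replicate 1 or 3 or 24 h replicate 1 or 2 (adjusted p 0.0687 to 0.146 and 0.0591 to 0.0802). Csf1r lost its call without 6 h replicate 3 or 24 h replicate 1 or 3 (adjusted p 0.0578 to 0.110), without a low-count filter (adjusted p = 0.0781) and in a fit of the 6 libraries alone (adjusted p = 0.0624), and Gpnmb without 6 h replicate 1 or 2 or 24 h replicate 1 or 3 (adjusted p 0.0609 to 0.127). Lyz2 passed under each of the 12 alternatives. Mrc1 had a log2 fold change of 0.31 ± 0.10 (edgeR adjusted p = 0.0549) and passed in 6 of 12 alternatives.

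**Figure D4:**
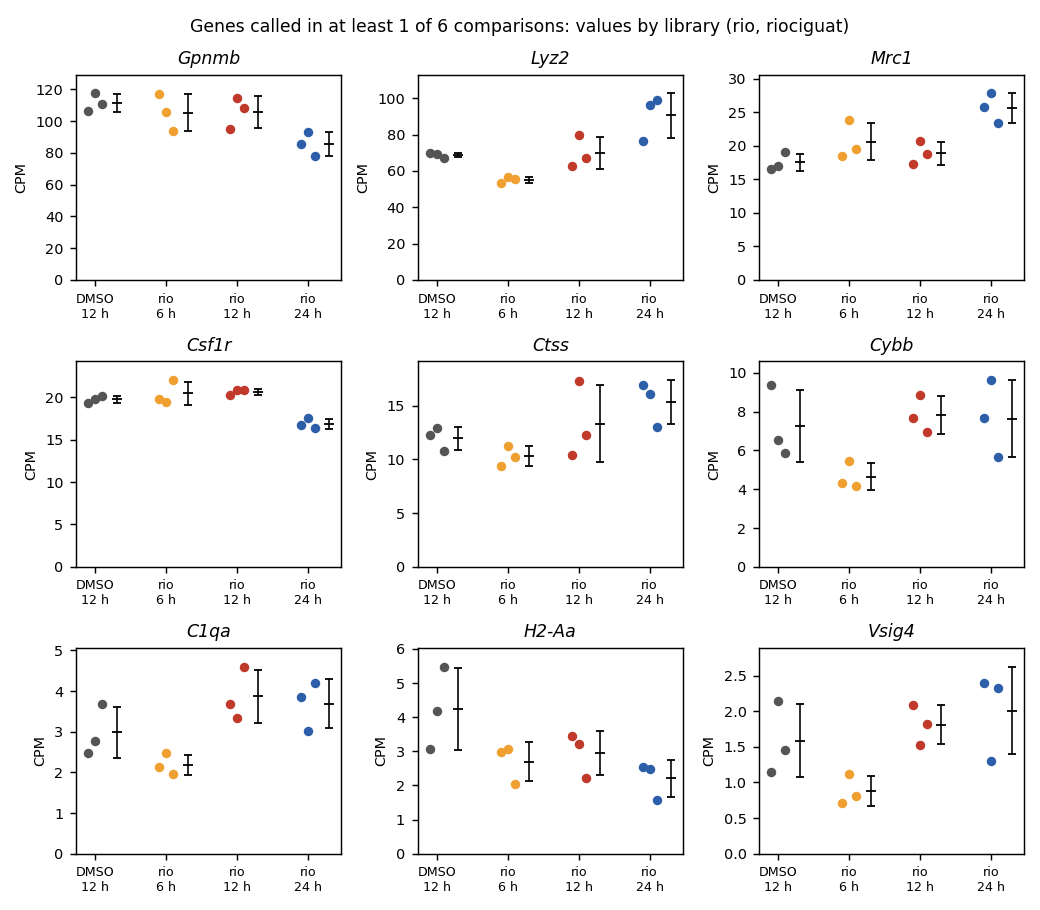
CPM in each library of the 9 genes called in at least 1 of the 6 comparisons, with 1 panel per gene, a linear axis from 0, and the mean ± SD of each group (n = 3) beside its points. Lyz2, Cybb, C1qa and Vsig4 are lowest in the 6 h libraries, Gpnmb and Csf1r are lowest in the 24 h libraries, and Mrc1 has its highest mean at 24 h.

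Between 24 and 12 h, 3 of the 31 genes were called, against 3.08% of all tested genes (1.37% higher and 1.71% lower). The groups did not overlap for 4 of 31, against 19.7% of all genes. Mrc1 read 17.2, 20.7 and 18.8 CPM at 12 h, all below 24 h, and rose by 0.44 ± 0.10 on the log2 scale (SE; edgeR adjusted p = 0.0240). Lyz2 rose by 0.37 ± 0.09 (edgeR adjusted p = 0.0297), although its 12 h replicate 2, at 79.9 CPM, lay above the lowest 24 h library. Csf1r fell by 0.30 ± 0.08 on the log2 scale, without overlap (edgeR adjusted p = 0.0433). The Csf1r call was lost without any 1 of the 6 libraries (adjusted p 0.0676 to 0.157), by DESeq2 (adjusted p = 0.0849), without a low-count filter (adjusted p = 0.120), with a replicate block (adjusted p = 0.0713) and in a fit of the 6 libraries alone (adjusted p = 0.0769). Mrc1 lost its call without 12 h replicate 1 or 3 or 24 h replicate 1 or 2 (adjusted p 0.0718 to 0.125). Lyz2 lost its call without 12 h replicate 1 or 3 or 24 h replicate 2 or 3 (adjusted p 0.113 to 0.154) and in a fit of the 6 libraries alone (adjusted p = 0.0639). Gpnmb fell short in the other direction, with a log2 fold change of -0.31 ± 0.08 (edgeR adjusted p = 0.0524), and passed in 6 of 12 alternatives.

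Over all 6 comparisons, 9 of the 31 tested macrophage genes, or 29.0%, were called at least once, against 25.1% of all tested genes. The 18 calls made up 9.68% of the 186 pairs of a gene and a comparison, against 8.86% over all genes. Both shares lay near those of the whole table. The median SE of the log2 fold changes of these genes lay between 0.22 and 0.23 in each comparison, against 0.10 to 0.11 over all tested genes.

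The genes called higher at 24 h than at 6 h were Lyz2, Vsig4, Ctss, Cybb and C1qa, and the promoters of the first 4 are shown. Their shared direction follows from how they were picked. The motif searched was the PU box core GAGGAA, on both strands, in the window from 250 bases before to 50 bases after each RefSeq transcription start (GRCm38.p6). Promoters were found for 26 of the 35 genes, 1 of them with 2 starts. Of these 27 promoters 15 held the motif, or 55.6%, against 28.3% of 32851 promoters of all genes. The Vsig4 window held 2 matches on the gene strand, the Ctss window 1 on each strand and the Cybb window 1 on the other strand, and none of these letters was found in the Lyz2 window. The sequences are given 5′ to 3′ on the gene strand with each match in capitals, which reads TTCCTC where the motif lies on the other strand.

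Vsig4 promoter, chrX:96293389-96293688, minus strand: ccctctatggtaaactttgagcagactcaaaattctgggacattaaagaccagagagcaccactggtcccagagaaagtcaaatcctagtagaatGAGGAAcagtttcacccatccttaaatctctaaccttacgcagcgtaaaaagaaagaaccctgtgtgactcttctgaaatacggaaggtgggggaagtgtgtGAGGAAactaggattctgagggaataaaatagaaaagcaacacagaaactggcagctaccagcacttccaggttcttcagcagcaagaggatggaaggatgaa
Ctss promoter, chr3:95526536-95526835, plus strand: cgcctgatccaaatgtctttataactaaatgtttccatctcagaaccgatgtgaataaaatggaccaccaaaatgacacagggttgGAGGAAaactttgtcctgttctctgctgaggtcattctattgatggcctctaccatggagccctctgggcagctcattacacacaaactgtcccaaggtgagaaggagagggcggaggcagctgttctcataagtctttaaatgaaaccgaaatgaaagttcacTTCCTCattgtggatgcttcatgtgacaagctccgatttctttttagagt
Cybb promoter, chrX:9469275-9469574, minus strand: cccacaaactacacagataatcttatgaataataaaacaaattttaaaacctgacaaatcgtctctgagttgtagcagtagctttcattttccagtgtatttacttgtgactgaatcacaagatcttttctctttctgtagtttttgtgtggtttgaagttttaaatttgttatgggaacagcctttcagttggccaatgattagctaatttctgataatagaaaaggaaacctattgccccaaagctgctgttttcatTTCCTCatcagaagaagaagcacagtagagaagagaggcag
Lyz2 promoter, chr10:117282223-117282522, minus strand: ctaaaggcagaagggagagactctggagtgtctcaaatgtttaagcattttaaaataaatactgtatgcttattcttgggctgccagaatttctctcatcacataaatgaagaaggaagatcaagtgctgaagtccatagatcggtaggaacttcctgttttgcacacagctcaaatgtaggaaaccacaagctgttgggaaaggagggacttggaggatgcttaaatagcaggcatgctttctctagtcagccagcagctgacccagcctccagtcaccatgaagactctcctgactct

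A match describes the letters in the window and is not a binding site. Spi1 itself was low, between 1.40 and 3.59 CPM over the 12 libraries, and had log2 fold changes of -0.55 ± 0.32 at 6 h and -0.39 ± 0.32 at 24 h against DMSO (SE; edgeR adjusted p = 0.328 and 0.483).

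The ligands that recruit and sustain macrophages included some of the more abundant transcripts described here. In a list of 14 such genes, 12 were tested. Of these 2 fell and none rose at 12 h, 4 fell and 1 rose at 6 h, and 4 fell and 2 rose at 24 h, each against DMSO. Of all tested genes 5.66%, 9.72% and 13.4% were called in these comparisons. Cxcl12, which encodes a chemokine of stromal cells, read 1767, 1904 and 1957 CPM in DMSO and 1007, 939 and 1059 CPM at 12 h, without overlap. It fell by 0.91 ± 0.07 on the log2 scale at 12 h (SE; edgeR adjusted p = 2.99e-07), by 0.78 ± 0.07 at 6 h and by 0.86 ± 0.07 at 24 h. Csf1, the growth factor that acts through Csf1r, was singled out after its values were seen. It read 2586, 2763 and 2818 CPM in DMSO, 2317, 2133 and 2273 CPM at 6 h, 2333, 2053 and 2321 CPM at 12 h, and 2111, 2076 and 2102 CPM at 24 h, with all riociguat libraries below DMSO. It fell by 0.28 ± 0.05 at 12 h, by 0.28 ± 0.05 at 6 h and by 0.38 ± 0.05 at 24 h on the log2 scale (edgeR adjusted p = 0.0015, 0.0014 and 5.83e-05). Its receptor gene Csf1r was not called against DMSO at any of these times.

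The monocyte attractants followed another course. Ccl2 read 266, 235 and 232 CPM in DMSO, 128, 111 and 99.9 CPM at 6 h, and 247, 218 and 216 CPM at 12 h. It fell by 1.12 ± 0.09 at 6 h on the log2 scale, and its log2 fold change at 12 h was -0.11 ± 0.09 (SE; edgeR adjusted p = 3.14e-07 and 0.614). The difference between 12 and 6 h was itself called, at 1.01 ± 0.09 (edgeR adjusted p = 1.74e-06). Ccl7, its close relative, likewise fell at 6 h, by 0.97 ± 0.08, and was higher at 12 h than at 6 h by 0.90 ± 0.08. C3, the central complement component, fell at 24 h by 0.39 ± 0.05 from 323, 342 and 325 CPM to 255, 268 and 234 CPM (edgeR adjusted p = 3.35e-05). Ccr2, the receptor for Ccl2 and Ccl7, had too few counts to test.

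**Figure D5:**
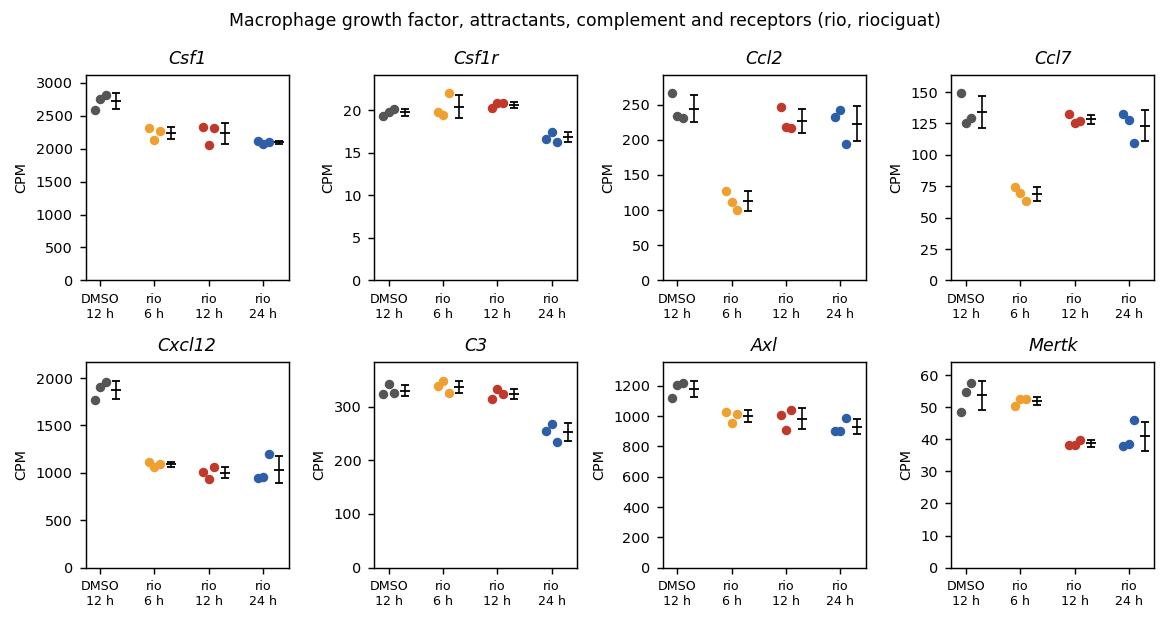
CPM in each library of the growth factor gene Csf1 and its receptor gene Csf1r, the attractants Ccl2, Ccl7 and Cxcl12, the complement gene C3 and the receptor genes Axl and Mertk, with a linear axis from 0 and the mean ± SD of each group (n = 3). Ccl2 and Ccl7 are lowest at 6 h, and Csf1, Cxcl12 and Axl are below DMSO in every riociguat library.

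Among 55 further genes expressed by macrophages, 50 were tested. Against DMSO, none rose and 2 fell at 12 h, 5 rose and 3 fell at 6 h, and 3 rose and 3 fell at 24 h, with median log2 fold changes of 0.04, -0.04 and 0.04. The shares over all tested genes were 5.66%, 9.72% and 13.4% in the same order. Axl and Mertk, which encode receptors for the removal of dying cells, were the genes that fell at 12 h. Mertk went from 48.5, 54.9 and 57.6 CPM in DMSO to 38.1, 38.2 and 39.9 CPM at 12 h, and fell by 0.47 ± 0.08 on the log2 scale (SE; edgeR adjusted p = 0.00081). Axl fell by 0.26 ± 0.05 at 12 h, by 0.24 ± 0.05 at 6 h and by 0.34 ± 0.05 at 24 h, and its 12 h call was lost without 12 h replicate 2 (adjusted p = 0.0580). Axl was measured at 1120 to 1216 CPM in DMSO and is also transcribed in stellate cells. Inpp5d, a lipid phosphatase gene of blood cells, rose by 0.91 ± 0.11 at 6 h and fell by 0.53 ± 0.12 at 24 h. Fcgr2b, an inhibitory Fc receptor gene that is also in the endothelial list, rose by 0.42 ± 0.05 at 6 h and by 0.44 ± 0.05 at 24 h.

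All 15 genes of a list of macrophage transcription factors were tested. None was called at 12 or 6 h against DMSO, and 2 rose at 24 h. Of all tested genes 5.66%, 9.72% and 13.4% were called at 12, 6 and 24 h. The 2 that rose were Zeb2, by 0.24 ± 0.05, and Id3, by 0.24 ± 0.07 on the log2 scale (SE; edgeR adjusted p = 0.0047 and 0.0217). The Id3 call was lost without DMSO replicate 3 or 24 h replicate 2 (adjusted p 0.0573 to 0.0599). Irf8 was lower at 24 h than at 6 h by a log2 fold change of -0.48 ± 0.11, and Cebpb was higher at 12 h than at 6 h by 0.92 ± 0.21 (edgeR adjusted p = 0.0046 and 0.0109). The Cebpb call was lost without 6 h replicate 3 or 12 h replicate 1 (adjusted p 0.0700 to 0.0855).

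Of 20 listed genes of macrophage activation 14 were tested. Against DMSO 2 rose at 12 h, 2 rose and 1 fell at 6 h, and 2 rose and 1 fell at 24 h, beside 5.66%, 9.72% and 13.4% of all tested genes called. Il6, which encodes interleukin-6, read 2.58, 1.05 and 0.968 CPM in DMSO and 3.87, 4.62 and 4.79 CPM at 12 h, without overlap, and rose by 1.53 ± 0.30 on the log2 scale (SE; edgeR adjusted p = 0.0034). It also rose by 1.31 ± 0.30 at 6 h, a call lost without DMSO replicate 2 or 3 (adjusted p 0.0503 to 0.0583), and by 1.32 ± 0.30 at 24 h. Socs3, a feedback inhibitor of cytokine signalling, rose by 0.67 ± 0.07 at 24 h and by 0.24 ± 0.07 at 12 h. The 12 h call of Socs3 was lost without DMSO replicate 2 or 3 or any 12 h replicate, with a replicate block and in a fit of the 6 libraries alone (adjusted p 0.0575 to 0.213 without 1 library). Ptgs2, the inducible cyclooxygenase gene, rose by 0.35 ± 0.08 at 6 h and fell by 0.39 ± 0.08 at 24 h. The chemokine gene Cxcl10 fell by 0.71 ± 0.17 at 6 h. Both 6 h calls were lost without DMSO replicate 2 or 6 h replicate 3 (adjusted p 0.0674 to 0.0716 for Ptgs2 and 0.0794 to 0.0837 for Cxcl10). Stellate and endothelial cells can transcribe these genes too.

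The lysosomal and lipid-associated list of 21 genes, all tested, had 1 gene higher and 1 lower at 12 h, 6 higher at 6 h, and 2 higher and 4 lower at 24 h against DMSO, where 5.66%, 9.72% and 13.4% of all tested genes were called. Spp1, the osteopontin gene, which is also a cholangiocyte marker, read 282, 259 and 257 CPM in DMSO and 728, 747 and 721 CPM at 24 h, and rose by 1.46 ± 0.06 on the log2 scale (SE; edgeR adjusted p = 4.15e-11). Ctsd, the cathepsin D gene, rose by 0.22 ± 0.04 at 6 h and fell by 0.28 ± 0.04 at 24 h. Lipa, the lysosomal lipase gene, rose by 0.46 ± 0.05 at 6 h, and Hexa, a subunit gene of beta-hexosaminidase, fell by 0.28 ± 0.04 at 24 h. Gpnmb, the only lipid-associated macrophage gene among the 35 that was called, fell at 24 h like Ctsd and Hexa. Trem2, a receptor gene of lipid-associated macrophages, had a log2 fold change of -0.08 ± 0.25 at 24 h.

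None of 5 tested genes among 7 further genes of MHC class II presentation was called in any comparison. Their median log2 fold changes against DMSO were -0.09 at 12 h, -0.27 at 6 h and -0.31 at 24 h. The peptide-loading gene H2-DMa had log2 fold changes from -0.09 to 0.37 and H2-DMb1 from -0.75 to -0.18 in these 3 comparisons. Ciita, the master regulator of MHC class II genes, was measured at 0.0453 to 0.949 CPM over the 12 libraries. B cells also transcribe MHC class II genes, and the 7 B cell markers summed to 59.1 to 87.5 CPM in DMSO and 28.1 to 68.7 CPM at 24 h. Their part in the lower H2-Aa was not tested.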

How the data were processed

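RNA sequencing was analysed in 12 libraries. The authors deposited expected counts, that is estimated counts of reads per gene, as whole numbers. The submitters' processing notes name FastQC, fastp, Salmon, DESeq2 and the build GRCm38. Their versions, roles and strand handling are not stated there. Salmon divides reads among similar transcripts, so near-identical or overlapping genes are uncertain. Gene positions and exon lengths came from the GENCODE vM21 annotation (GRCm38) and promoters from RefSeq (GRCm38.p6).

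The counts needed no rounding. In R 4.3.3, edgeR 4.0.16 filtered them with filterByExpr, which left 16036 genes, scaled them by TMM and fitted 1 model of group over the 12 libraries (glmQLFit and glmQLFTest, two-sided). P-values were Benjamini-Hochberg adjusted over these genes within each of 6 comparisons, and an adjusted p under 0.05 is a call. SEs came from the F statistic. The steps were tested on simulated counts. Alternatives were RLE factors, library totals, no filter, DESeq2 1.42.0, only the 6 libraries compared, a replicate block, and leaving out each library.

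The 35 genes and all lists were chosen with earlier results of these data known. Values by library are given for genes called at least once and for Clec4f, Vsig4, Adgre1, Csf1r, Ptprc, Spi1 and Cd68. For several of these genes the text does not give them in every group. From each further macrophage list at most the 4 genes with the smallest p are named. Other names were chosen after their values were seen. Counting error only is covered by the limits given for counts of 0.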

Additional observations from a re-analysis of the deposited data

Results flagged for a closer look

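The exposure times differed directly, in a test of the difference itself, for 8 of the macrophage genes in 13 comparisons of a gene between 2 times. Of the 31 tested macrophage genes, 3 were called between 12 and 6 h, 3 between 24 and 12 h and 7 between 24 and 6 h. Of all tested genes 6.09%, 3.08% and 15.3% were called, in the same order. Between 12 and 6 h, the log2 fold changes were 0.82 for C1qa, 0.34 for Lyz2 and 0.75 for Cybb. Between 24 and 12 h they were -0.30 for Csf1r, 0.37 for Lyz2 and 0.44 for Mrc1. Between 24 and 6 h they were 1.18 for Vsig4, 0.76 for C1qa, -0.29 for Csf1r, 0.71 for Lyz2, 0.71 for Cybb, 0.57 for Ctss and -0.30 for Gpnmb. The groups differed in how long riociguat was present and in how long after the medium change it was added, and these cannot be told apart. Of the 13 calls, that of Lyz2 between 24 and 6 h held under all 12 alternatives, and each of the other 12 was lost without at least 1 library.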

How the results depend on the processing

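Leaving out 1 library moved the count of called genes, over the whole table, to 510 to 1262 for riociguat 12 h against DMSO, 955 to 1852 for 6 h, 1395 to 2566 for 24 h, 596 to 836 for 12 against 6 h and 318 to 432 for 24 against 12 h. The count of called macrophage genes then lay between 0 and 1 at 6 h against DMSO, 0 and 2 for 12 against 6 h, 0 and 2 for 24 against 12 h and 1 and 8 for 24 against 6 h. At 6 h against DMSO the count was 3 without a low-count filter, 2 by DESeq2 and 2 with a replicate block. The table-wide count for 24 against 12 h was 838 without a filter. The summed level without 7 genes that other liver cells can also express was 236 CPM in DMSO and 219, 238 and 210 CPM at 6, 12 and 24 h (209.8 before rounding), with every 24 h library below every DMSO library, unlike the sum over all 35 genes. Gpnmb, which stayed in the shorter sum, had a mean of 111.4 CPM in DMSO and 85.55 CPM at 24 h. That difference was nearly as large as the difference of the shorter sum between DMSO and 24 h. The cause of the lower Gpnmb was not tested. No called change reversed its direction. Same-numbered libraries shared only a number: none of 18 pairs had a correlation of deviations over 0.1 (range -0.14 to 0.08). With the replicate block, C1qa between 12 and 6 h and Csf1r between 24 and 12 h lost their calls, and Cybb at 6 h against DMSO, Gpnmb between 24 and 12 h and Mrc1 between 24 and 6 h gained one. Depth limits Clec4f, with 2 to 14 counts per library, and Timd4, with 0 to 4, more than Vsig4, with 9 to 53, or Marco, with 45 to 134.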
